A study of Homo sapiens with 34 samples.

Results

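The 30 genes described here make mevalonate and sterols, sense sterols, or attach isoprenoid tails to proteins and finish those tails. They were taken by symbol from the tables of 3 human B-ALL (B-cell acute lymphoblastic leukemia) cell lines: 8 genes of the first steps to isoprenoids, 11 genes of squalene and sterol synthesis, 5 genes of sterol sensing, and 6 genes of prenylation and methylation. All 30 were among the 13307 genes listed in every comparison, and all 30 had a mean level of at least 10 in every comparison, as did 10402 genes in all.

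The lines were NALM-6, whose label gives ETV6-PDGFRB, RS4;11 with MLL-AF4 and BV-173 with BCR-ABL. Each line was transduced with a lentivirus carrying an shRNA against *CCND3* (cyclin D3) or a scrambled shRNA and sorted on day 4. Each was also treated with 1 µM palbociclib, an inhibitor of the cyclin D-dependent kinases CDK4 and CDK6, or with DMSO, and collected after 3 days. All cells grew in the same serum-containing medium. These are established lines, and each stands for 1 leukemia. The 34 samples formed 12 groups of 3, except 2 samples each for NALM-6 with shCCND3 and BV-173 with DMSO. The deposited tables held 1 pooled level per gene and group. These levels carry neither the spread between samples nor the depth of a sample, so no test was made from them, and every ratio below is a description with no replicate check. Values given in threes stand in the order NALM-6, RS4;11, BV-173.

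The shCCND3 groups went with their labels. The *CCND3* level went from 19499 to 4727 in NALM-6, from 16178 to 3353 in RS4;11 and from 6619 to 2060 in BV-173 with the shRNA, and the palbociclib to DMSO log2 ratios of *CCND3*, which do not check the palbociclib labels, were −0.36, −0.29 and −0.40. All 7 B-lymphoblast markers were present, at levels between 1180 and 22781. The 3 T cell markers reached at most 7.28 and the 2 epithelial markers at most 36.1. Of the monocyte and fibroblast markers, *CSF1R* reached 513 and *COL1A1* 216, and their part in the results was not tested.

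Cells build cholesterol and isoprenoids from acetyl-CoA through mevalonate. The pathway branches at farnesyl pyrophosphate. One branch runs through squalene and lanosterol to cholesterol, and the other supplies farnesyl and geranylgeranyl groups that are attached to the cysteine of a C-terminal CAAX motif. RCE1 or ZMPSTE24 then removes the last residues, and ICMT methylates the exposed prenylcysteine. When sterol runs low, SCAP escorts the SREBP transcription factors from the endoplasmic reticulum, where INSIG proteins hold them back, and SREBP raises the synthesis enzymes together, often with NF-Y bound nearby.

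Since the synthesis enzymes are known as a co-regulated set, the DNA before their start sites was read from RefSeq (GRCh38.p14, the hg38 build named for the reads). Promoter windows were found for 26 of the 30 members. Of these, 6 are shown, because the results turn on them: *ICMT* had the lowest knockdown ratios in NALM-6 and RS4;11, *TM7SF2* was higher in every comparison, *HMGCS1* and *DHCR7* were past 1.5-fold with palbociclib in BV-173, *FDPS* was lower in NALM-6 and RS4;11, and *SREBF2* encodes the sterol regulator itself. Each run gives the 250 bases before the start, 5′ to 3′ on the strand of the gene. Capitals mark words found on either strand: the NF-Y word CCAAT, the SRE-like word TCACNCCAC, the E2F words TTTGGCG and TTTCCCG, and the E-box CACGTG. No marked words overlapped in these 6 stretches. *HMGCS1* and *DHCR7* have 2 windows each, and the one that holds a word is shown.
ICMT, chr1:6235965-6236214, minus strand: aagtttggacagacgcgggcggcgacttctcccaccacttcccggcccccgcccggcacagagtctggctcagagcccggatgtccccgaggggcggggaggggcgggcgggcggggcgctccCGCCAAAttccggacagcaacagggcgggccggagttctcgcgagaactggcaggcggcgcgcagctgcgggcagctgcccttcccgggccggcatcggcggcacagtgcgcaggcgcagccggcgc
TM7SF2, chr11:65111622-65111871, plus strand: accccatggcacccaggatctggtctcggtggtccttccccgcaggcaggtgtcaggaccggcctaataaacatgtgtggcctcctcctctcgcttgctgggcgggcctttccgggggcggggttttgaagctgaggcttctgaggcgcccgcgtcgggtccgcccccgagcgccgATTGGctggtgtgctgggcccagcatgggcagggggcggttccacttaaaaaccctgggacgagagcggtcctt
HMGCS1, chr5:43313413-43313662, minus strand: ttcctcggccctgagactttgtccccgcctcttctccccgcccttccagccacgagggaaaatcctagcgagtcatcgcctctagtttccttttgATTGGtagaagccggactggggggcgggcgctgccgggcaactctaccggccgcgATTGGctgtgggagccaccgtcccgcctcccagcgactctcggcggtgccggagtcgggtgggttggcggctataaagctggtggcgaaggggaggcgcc
DHCR7, chr11:71448394-71448643, minus strand: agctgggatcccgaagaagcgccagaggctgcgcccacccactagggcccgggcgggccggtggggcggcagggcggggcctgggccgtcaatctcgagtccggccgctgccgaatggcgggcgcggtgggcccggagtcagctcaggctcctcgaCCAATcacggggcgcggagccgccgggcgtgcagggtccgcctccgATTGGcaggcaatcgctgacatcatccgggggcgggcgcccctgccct
FDPS, chr1:155308616-155308865, plus strand: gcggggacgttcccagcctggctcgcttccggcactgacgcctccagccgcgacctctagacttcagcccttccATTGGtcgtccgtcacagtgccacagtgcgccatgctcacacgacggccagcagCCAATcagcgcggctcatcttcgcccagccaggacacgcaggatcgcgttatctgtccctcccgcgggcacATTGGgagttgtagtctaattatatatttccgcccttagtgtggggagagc
SREBF2, chr22:41832855-41833104, plus strand: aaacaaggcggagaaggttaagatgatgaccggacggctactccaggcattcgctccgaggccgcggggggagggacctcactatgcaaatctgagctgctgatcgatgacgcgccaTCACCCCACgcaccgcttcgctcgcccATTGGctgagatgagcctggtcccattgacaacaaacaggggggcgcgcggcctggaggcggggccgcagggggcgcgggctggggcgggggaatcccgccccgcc

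The NF-Y word stood in a window (250 bases before to 50 after the start) of 14 of the 16 synthesis enzymes with an entry. *PMVK* and *CYP51A1* were the exceptions. It stood in 2 of 5 sterol-sensing genes (*SREBF2* and *INSIG1*) and in 1 of 5 prenylation genes (*FNTB*), against 34.6% of all windows of that length, 39.7% of all genes and 44.1% of genes with the minimum level in every comparison, as the members have. *FDPS* carried 3 copies in the stretch above, and *HMGCS1* and *DHCR7* carried 2 each. The SRE-like word was found in 1 of 26 members and in 0 of the 16 synthesis enzymes. That member was *SREBF2*, where the word stood 133 bases before the start and ahead of an NF-Y word. The SRE-like word stood in 1.13% of all windows, 1.39% of all genes and 1.43% of genes with the minimum level. An E2F word was found in *ICMT*, 127 bases before the start, and also in *MVK*, *GGPS1* and *INSIG2*, which is 4 of 26 members, against 6.06% of all windows, 7.3% of all genes and 12.6% of genes with the minimum level. The E-box word was found in *LSS*, *SC5D*, *SCAP* and *INSIG1*, also 4 of 26 members, against 7.26% of all windows, 8.77% of all genes and 13.3% of genes with the minimum level. A word found is a match of letters, not a bound site. A word not found does not show that a site is absent, since a site may depart from these letters.

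The first question was how the set as a whole went with loss of cyclin D3. A log2 ratio here is that of the treated to the control level in 1 table, and a member counts as past 1.5-fold at a ratio of at least 1.5 either way. After knockdown, few members passed. In NALM-6 1 of 30 was higher (8.55% of all genes tested were) and 3 were lower (10.4% of all genes). In RS4;11 1 was higher (10.4%) and 2 were lower (11.3%). In BV-173 1 was higher (4.05%) and 0 were lower (5.39%). The member that was higher was *TM7SF2* in each line, and those that were lower were *ACAT2* and *ICMT* in NALM-6 and RS4;11 and *EBP* in NALM-6. No share lay above its background, and with 30 members some shares lay next to it. The median log2 ratio of the 30 members was −0.01, −0.10 and 0.10, against −0.01 to 0.00 for all genes.

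With palbociclib more members passed, as did more of all genes. In NALM-6 4 were higher (18.8% of all genes tested) and 3 lower (17.6%), in RS4;11 3 were higher (16.5%) and 3 lower (16.5%), and in BV-173 7 were higher (14.6%) and 0 lower (14.3%). The members that were higher were *LSS*, *TM7SF2*, *SC5D* and *FNTB* in NALM-6, *MVD*, *TM7SF2* and *NSDHL* in RS4;11, and *HMGCS1*, *MVD*, *LSS*, *TM7SF2*, *MSMO1*, *NSDHL* and *DHCR7* in BV-173. The lower ones were *ACAT2* and *FDPS* in NALM-6 and RS4;11, *EBP* in NALM-6 and *ICMT* in RS4;11. The median log2 ratio of the members was 0.10, 0.04 and 0.30 in the 3 lines, against −0.02 to 0.00 for all genes. The share of higher members in BV-173 with palbociclib, 7 of 30, was the one share above its background in the 6 comparisons.

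**Figure D1:**
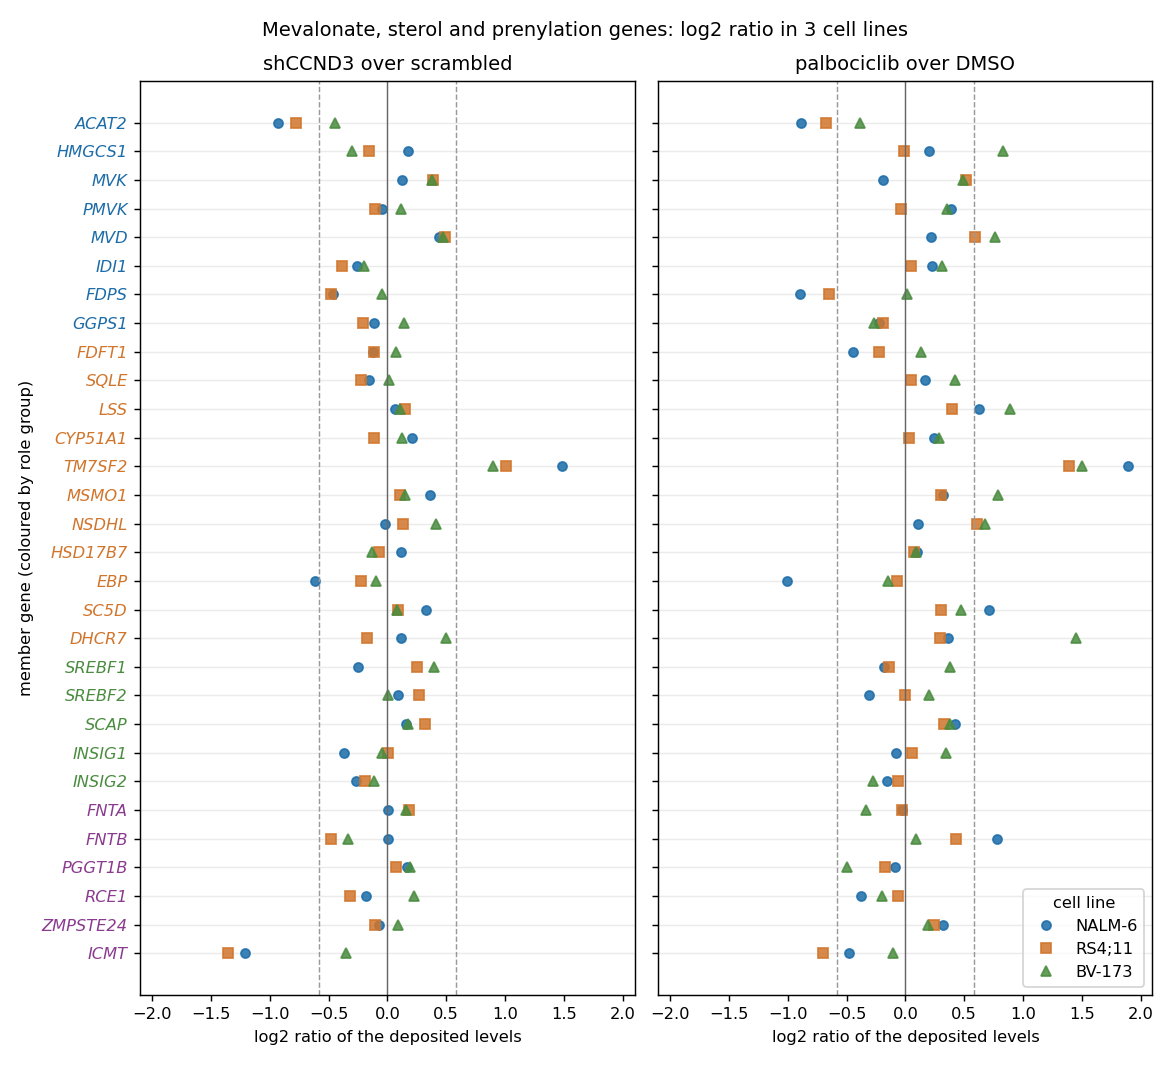
Log2 ratio of the treated to the control level for each of the 30 members (rows, coloured by role) in 3 cell lines, with *CCND3* knockdown on the left and palbociclib on the right. Dashed lines mark 1.5-fold. *TM7SF2* lies past the right-hand line in all 6 comparisons, *ICMT* past the left-hand line in NALM-6 and RS4;11 after knockdown and in RS4;11 with palbociclib, and 17 members stay between the lines throughout.

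Over the 6 comparisons, 17 of 30 members never passed 1.5-fold, with log2 ratios between −0.50 and 0.51, and 43.5% of all genes never passed. Also, 6 members were above their control in every comparison (*MVD*, *LSS*, *TM7SF2*, *MSMO1*, *SC5D* and *SCAP*) and 4 were below it in every comparison (*ACAT2*, *EBP*, *INSIG2* and *ICMT*). Of all genes, 13.6% were above and 18.7% below in every comparison. *TM7SF2* was past 1.5-fold higher in all 6, as were 36 of the 10402 genes.

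Of the prenylation and methylation genes, *ICMT* was the member with the largest ratios after knockdown. *ICMT* (chromosome 1, 6221193 to 6235964) encodes isoprenylcysteine carboxyl methyltransferase, the last enzyme of CAAX processing. The study picked this gene out on these samples as repressed by *CCND3* knockdown only. Neither its direction nor its knockdown ratio set against palbociclib is therefore independent evidence. After knockdown its level went from 3157 to 1363 in NALM-6 and from 2711 to 1058 in RS4;11, which left 43.2% and 39.0% of the scrambled level, with log2 ratios of −1.21 and −1.36. In BV-173 it went from 2891 to 2269 and the log2 ratio was −0.35. Of all genes, 2.11%, 2.74% and 15.3% had a ratio at least as low in the 3 lines. With palbociclib the level went from 2638 to 1897 in NALM-6 (log2 ratio −0.48), from 2796 to 1721 in RS4;11 (−0.70) and from 2528 to 2347 in BV-173 (−0.11). The 6 treated levels were all lower than the 6 control levels, which ran from 2528 to 3157. These levels come from separate tables that may be scaled differently. In each line the knockdown ratio was lower than the palbociclib ratio. The span of *ICMT* overlaps that of *RNF207*, whose level was between 8.44 and 21.7 in all 12 groups.

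The enzymes that act before ICMT did not share its values. *FNTA*, the alpha subunit common to farnesyltransferase and GGTase I, the enzymes that add farnesyl and geranylgeranyl groups, had log2 ratios of 0.00, 0.19 and 0.16 after knockdown and −0.03, −0.03 and −0.33 with palbociclib. *PGGT1B*, the beta subunit of GGTase I, went from 351 to 394, from 502 to 529 and from 221 to 252 after knockdown. With palbociclib *PGGT1B* went from 268 to 252, from 500 to 444 and from 231 to 163. It was thus above the control in 3 of 3 knockdown comparisons and below it in 3 of 3 palbociclib comparisons, with no ratio past 1.5-fold. *RCE1*, the CAAX endoprotease, had log2 ratios of −0.18, −0.32 and 0.23 after knockdown and −0.38, −0.06 and −0.20 with palbociclib. *ZMPSTE24*, the zinc metalloprotease that also processes prelamin A, had log2 ratios of −0.08, −0.10 and 0.09 after knockdown and 0.32, 0.24 and 0.19 with palbociclib.

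*FNTB*, the farnesyltransferase beta subunit, was the other prenylation gene past 1.5-fold. With palbociclib its level went from 93.4 to 161 in NALM-6, from 154 to 208 in RS4;11 and from 168 to 179 in BV-173, with log2 ratios of 0.78, 0.43 and 0.09. After knockdown it went from 205 to 206, from 231 to 166 and from 239 to 190. The NALM-6 DMSO level of 93.4 was the lowest of the 12, and the treated level of 161 lay below the 205 of NALM-6 with scrambled shRNA. Levels of separate tables may be scaled differently. The gene shares exons with the readthrough transcript *CHURC1-FNTB*, which went from 152 to 105 in NALM-6 with palbociclib while *FNTB* was higher, so how reads were split between both is uncertain. The span of *FNTB* also overlaps *MAX*. The log2 ratios of *MAX* were 0.46, 0.74 and 0.24 with palbociclib and 0.23, 0.21 and 0.16 after knockdown. Whether reads were shared with *MAX* was not tested. The median log2 ratio of the 6 prenylation genes was −0.04, −0.21 and 0.13 after knockdown and −0.06, −0.04 and −0.15 with palbociclib.

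**Figure D2:**
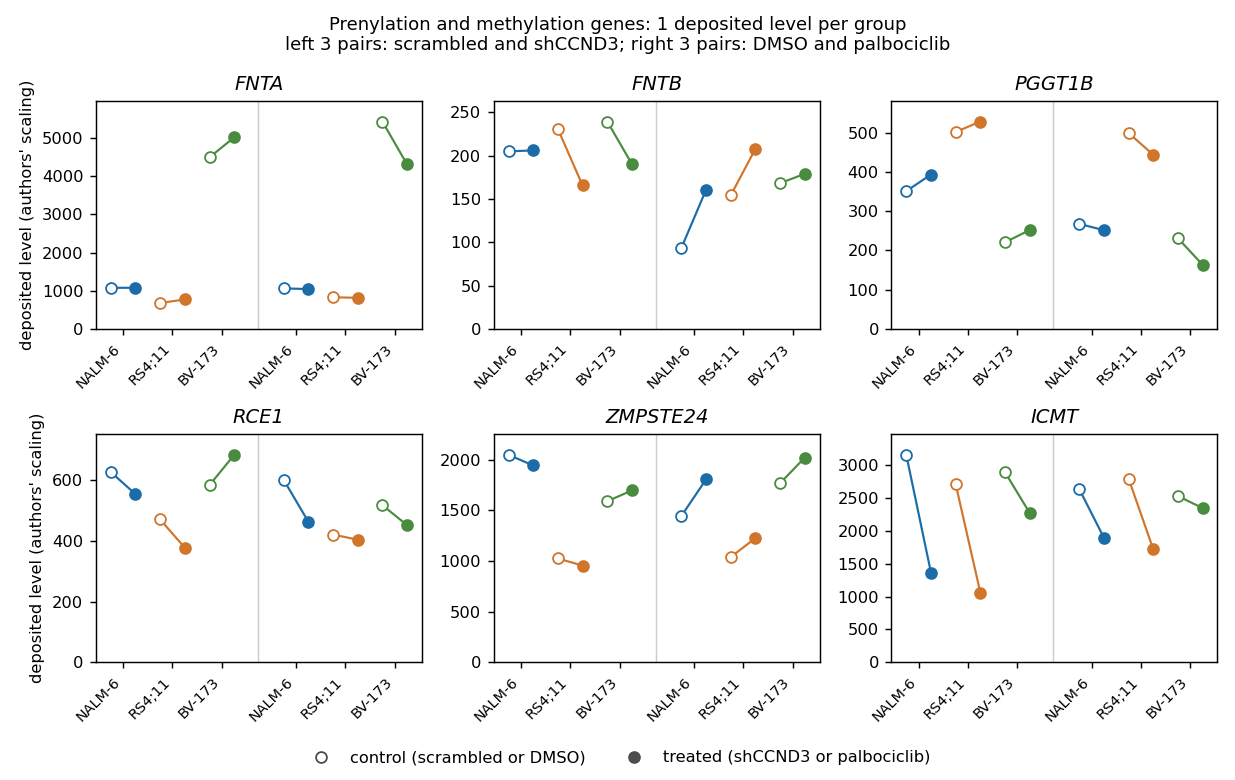
Deposited level (linear axis from 0, in the authors' scaling, which may differ between tables) of the 6 prenylation and methylation genes in the 12 groups. Open circles are scrambled or DMSO, filled circles shCCND3 or palbociclib, and a line joins the 2 groups of a table. The *ICMT* levels of 1363 and 1058 in NALM-6 and RS4;11 with shCCND3 are the lowest of its 12 values, and *FNTA* in BV-173 is at 4310 or more in all 4 groups.

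Among the first steps to isoprenoids, *ACAT2* was the gene with the lowest mean ratio. It encodes the cytosolic acetyl-CoA acetyltransferase that starts the pathway. Its level went from 1467 to 768 in NALM-6, from 1595 to 928 in RS4;11 and from 974 to 713 in BV-173 after knockdown (log2 ratios −0.93, −0.78 and −0.45). With palbociclib it went from 1277 to 690, from 2012 to 1261 and from 696 to 531 (−0.89, −0.67 and −0.39). Lines kept the same order of ratios in both treatments, with NALM-6 lowest and BV-173 closest to 0. The span of *ACAT2* overlaps *SOD2* and *TCP1*. *SOD2*, mitochondrial superoxide dismutase, had log2 ratios of 0.65, −0.23 and 0.27 after knockdown and 0.51, −0.50 and −0.09 with palbociclib. For *TCP1*, a chaperonin subunit, they were −0.13, −0.28 and 0.01 after knockdown and −0.40, −0.45 and −0.08 with palbociclib. Whether the library kept strand is not given in the sources used here, so reads of the overlap cannot be told apart.

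*FDPS*, farnesyl pyrophosphate synthase at the branch point, had the other low values of this group. It went from 2559 to 1860 in NALM-6 and from 2975 to 2130 in RS4;11 after knockdown (log2 ratios −0.46 and −0.48). With palbociclib it went from 2734 to 1472 and from 4221 to 2694 (−0.89 and −0.65). In BV-173 it hardly differed, from 1810 to 1751 with shCCND3 and from 1413 to 1424 with palbociclib. *FDPS* has 10 annotated pseudogenes, which may share reads with it, as may those of *IDI1*, *CYP51A1*, *FNTA* and *PGGT1B* with their genes. *GGPS1*, which makes geranylgeranyl pyrophosphate, had log2 ratios between −0.27 and 0.14.

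*MVD*, mevalonate diphosphate decarboxylase, had the opposite sign. Its level went from 521 to 705, from 488 to 686 and from 294 to 407 after knockdown, with log2 ratios of 0.43, 0.49 and 0.47. With palbociclib the log2 ratios of *MVD* were 0.22, 0.59 and 0.76. *MVK*, mevalonate kinase, was above its control except in NALM-6 with palbociclib, where the log2 ratio was −0.19. Its span overlaps *MMAB*, which had a log2 ratio of 0.75 in BV-173 with palbociclib, where *MVK* had 0.49. *HMGCS1*, which makes HMG-CoA, had log2 ratios of 0.17, −0.15 and −0.30 after knockdown and 0.20, −0.01 and 0.83 with palbociclib, so that the sign for BV-173 differed between the treatments. *IDI1*, isopentenyl diphosphate isomerase, was below the scrambled level in all 3 lines (−0.26, −0.39 and −0.20) and above the DMSO level in all 3 (0.22, 0.04 and 0.31). The span of *IDI1* overlaps *WDR37*, which had log2 ratios of 0.19, 0.49 and −0.54 after knockdown and 0.91, 0.82 and 0.54 with palbociclib. *PMVK*, phosphomevalonate kinase, had log2 ratios between −0.10 and 0.38.

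In the sterol branch, *TM7SF2* had the highest ratios of all members. *TM7SF2* (chromosome 11, 65111872 to 65116230) encodes a sterol C14 reductase. After knockdown its level went from 289 to 807 in NALM-6, from 523 to 1051 in RS4;11 and from 335 to 622 in BV-173, which is 2.79-fold, 2.01-fold and 1.86-fold. With palbociclib it went from 269 to 999, from 587 to 1538 and from 400 to 1128, which is 3.72-fold, 2.62-fold and 2.82-fold. The 6 treated levels, 622 and more, were all above the 6 control levels, 587 and less, from separate tables that may be scaled differently. Of all genes, 0.24% had a mean log2 ratio over the lines at least as high as its 1.13 after knockdown, and 0.76% as high as its 1.59 with palbociclib.

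No neighbour in the pathway had such values in both treatments. *CYP51A1*, the demethylase just before it, had log2 ratios between −0.11 and 0.29. *MSMO1* and *NSDHL*, which remove the C4 methyl groups after it, had mean log2 ratios of 0.20 and 0.17 after knockdown and 0.47 and 0.46 with palbociclib. *HSD17B7*, the ketoreductase of that complex, had log2 ratios between −0.13 and 0.12 in all 6 comparisons. *EBP*, the isomerase that follows, was lower in NALM-6, from 1022 to 669 with shCCND3 and from 1171 to 584 with palbociclib, which left 65.4% and 49.8% of the control level. In RS4;11 and BV-173 the *EBP* log2 ratios lay between −0.23 and −0.07.

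*DHCR7*, the reductase that makes cholesterol from 7-dehydrocholesterol, stood out in BV-173. With palbociclib its level went from 405 to 1105 there, which is 2.73-fold, and from 653 to 924 with shCCND3, a log2 ratio of 0.50. In NALM-6 and RS4;11 it went from 1738 to 2227 and from 1172 to 1437 with palbociclib. *LSS*, lanosterol synthase, went from 1366 to 2108, from 1429 to 1878 and from 419 to 776 with palbociclib (log2 ratios 0.63, 0.39 and 0.89) and had log2 ratios of 0.07 to 0.15 after knockdown. *SC5D*, the sterol C5 desaturase, had log2 ratios of 0.71, 0.30 and 0.47 with palbociclib and 0.32, 0.09 and 0.08 after knockdown. *SQLE*, squalene epoxidase, and *FDFT1*, squalene synthase, had log2 ratios between −0.45 and 0.42. The median log2 ratio of the 11 genes of this branch was 0.25, 0.29 and 0.47 with palbociclib and 0.11, −0.07 and 0.11 after knockdown. The share of its genes above the control was 9, 9 and 10 of 11 with palbociclib and 7, 5 and 9 of 11 after knockdown. Of all genes, 48.8% to 49.9% were above the control with palbociclib, and 49.7%, 49.3% and 50% after knockdown.

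**Figure D3:**
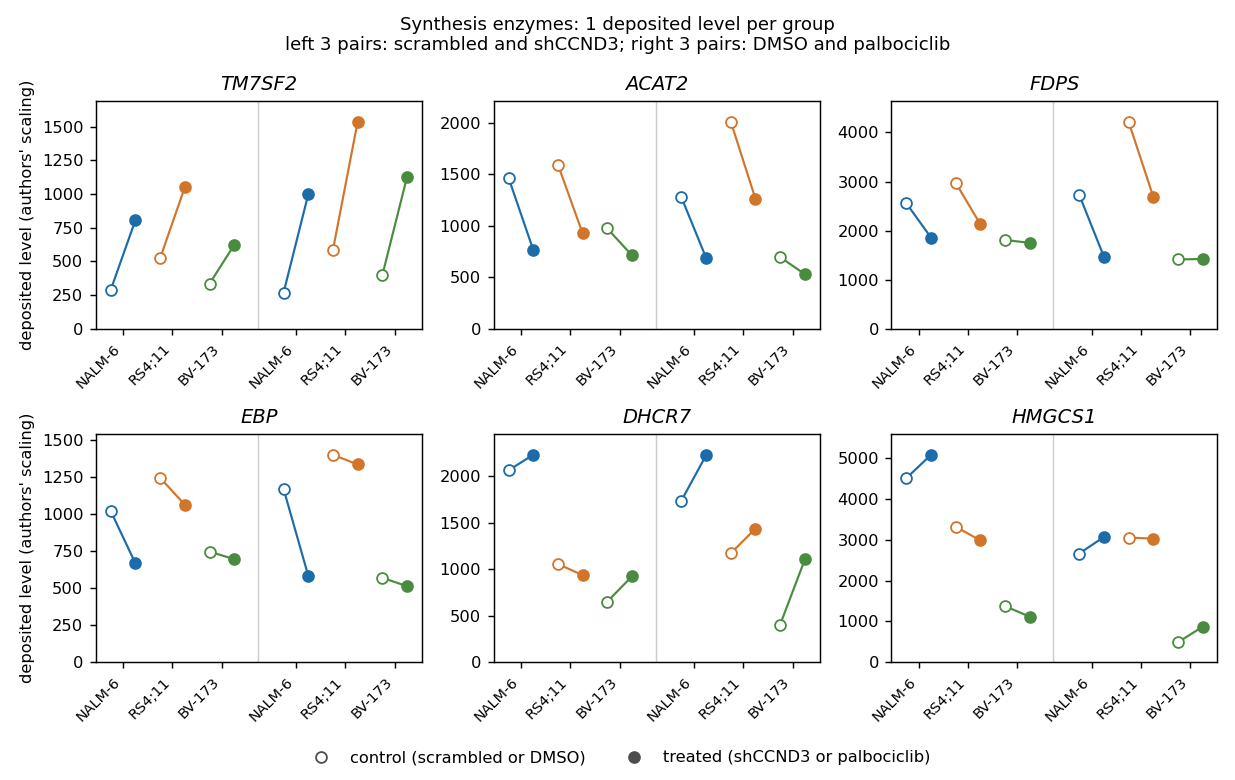
Deposited level (linear axis from 0, in the authors' scaling, which may differ between tables) of 6 synthesis enzymes in the 12 groups, drawn as pairs of control (open) and treated (filled). *TM7SF2* is higher and *ACAT2* lower in every pair, *FDPS* is lower mainly in NALM-6 and RS4;11, *EBP* mainly in NALM-6, and *HMGCS1* in BV-173 has its lowest level, 489, in DMSO.

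The 5 genes of sterol sensing had no ratio past 1.5-fold in any comparison. *SREBF2*, the SREBP gene tied to sterol synthesis, was at 8955 and 9511 in NALM-6, 10168 and 12214 in RS4;11 and 6192 and 6227 in BV-173 (scrambled, then shCCND3), and its palbociclib log2 ratios were −0.31, −0.01 and 0.20. *SREBF1*, tied more to fatty acid synthesis, had log2 ratios of −0.25, 0.25 and 0.40 after knockdown and −0.18, −0.14 and 0.38 with palbociclib. *SCAP*, the escort protein, was the one sensing gene above its control in every comparison, with log2 ratios between 0.16 and 0.42. *INSIG2* was below in every comparison, with log2 ratios between −0.28 and −0.07. *INSIG1*, itself a known SREBP target, had log2 ratios of −0.37, 0.00 and −0.05 after knockdown and −0.08, 0.05 and 0.34 with palbociclib.

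The treatments were then set against each other within a line, since each has its own control. Of the 30 members, 18, 24 and 23 had a lower ratio after knockdown than with palbociclib. Of all genes, 5390 of 11519, 5675 of 11936 and 5209 of 11076 did. The median difference (knockdown minus palbociclib log2 ratio) was −0.06, −0.14 and −0.21 for the members and 0.04, 0.02 and 0.03 for all genes. In the sterol branch the difference was −0.12, −0.21 and −0.39, with 7, 10 and 10 of 11 genes lower after knockdown. A gap between the controls of a line enters this difference, and its part was not tested. In BV-173 the scrambled to DMSO log2 ratios of this branch were 0.19 to 0.82, except *TM7SF2* at −0.25. They ran from −0.29 to 0.69 in NALM-6 and from −0.30 to 0.16 in RS4;11. *ICMT*, which the study picked on this contrast, differed by −0.74, −0.66 and −0.24. *FNTB* differed by −0.77, −0.91 and −0.42, and its scrambled level was above its DMSO level in each line, by log2 ratios of 1.13, 0.58 and 0.51. Across the 30 members the 2 sets of log2 ratios had Pearson's r of 0.81, 0.78 and 0.57, against 0.67, 0.80 and 0.52 across all genes. By role, r was 0.93, 0.93 and 0.865 in the sterol branch and 0.76, 0.93 and 0.38 in the first steps. It was 0.45, 0.37 and 0.64 for sterol sensing and 0.55, 0.58 and −0.49 for the prenylation genes. Each r by role rests on 5 to 11 genes, so single members can weigh heavily. *TM7SF2* had the highest ratios of the sterol branch in each line and treatment, and r without it was not computed. The genes of a line share its libraries and are not independent.

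**Figure D4:**
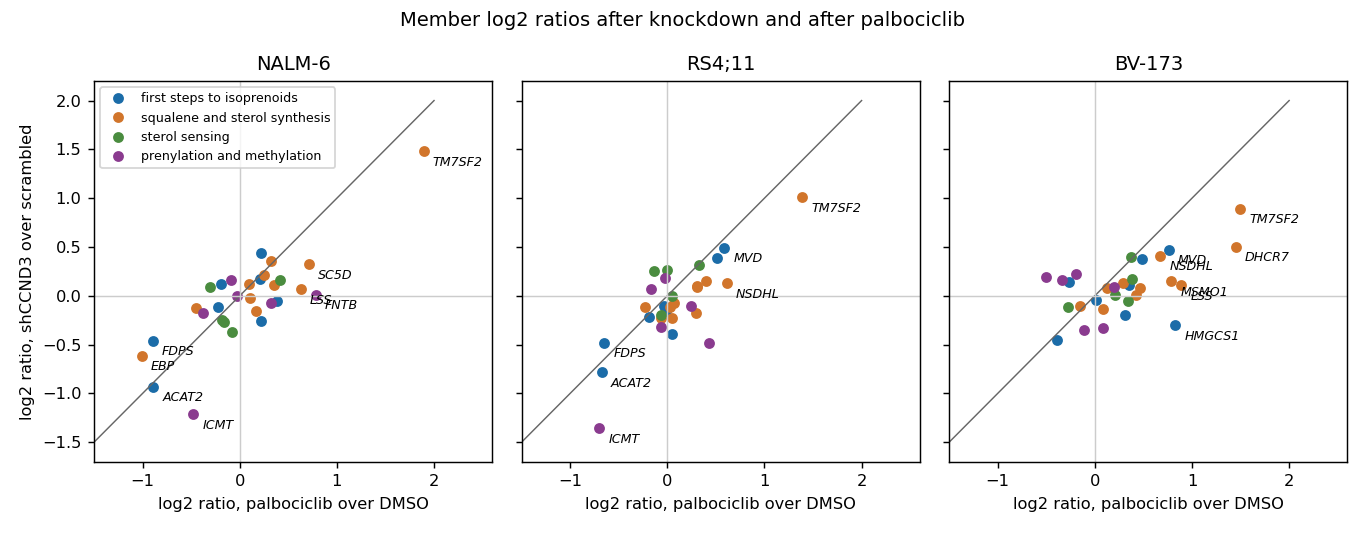
Log2 ratio after knockdown (vertical axis) against log2 ratio with palbociclib (horizontal axis) for the 30 members in each line, coloured by role. The solid line marks equal ratios, and members past 1.5-fold in either comparison are named. *TM7SF2* is at the upper right in each line, *ICMT* lies below the line of equal ratios, and in BV-173 23 of 30 members lie below that line.

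The control levels of each line were also set side by side. Their part in the BV-173 palbociclib values was not tested. Scrambled and DMSO cells of a line come from separate tables, which may be scaled differently, and differ in transduction, sorting and days of treatment. In BV-173 3 members differed by more than 1.5-fold between both controls: *HMGCS1* at 1376 with scrambled shRNA and 489 with DMSO, *LSS* at 740 and 419, and *DHCR7* at 653 and 405. These 3 genes also passed 1.5-fold with palbociclib, and the palbociclib level of *HMGCS1*, 870, was below its scrambled level. For *LSS* it was 776 and for *DHCR7* 1105, above the scrambled level. Smaller gaps were seen in other members that were higher there with palbociclib. The scrambled to DMSO log2 ratio was 0.39 for *MVD*, 0.30 for *MSMO1* and 0.33 for *NSDHL*, but −0.25 for *TM7SF2*. Such gaps were not limited to those members. Among members not past 1.5-fold there, it was 0.50 for *IDI1*, 0.49 for *ACAT2*, 0.39 for *EBP* and 0.36 for *FDPS*. For *FNTA* and *INSIG2* it was −0.27 and −0.37. The median of all genes with a level of at least 100 was −0.01. The BV-173 DMSO group is 1 of the groups with 2 samples, and the part of a single sample could not be seen. In NALM-6 4 members differed between the controls (*HMGCS1*, *SQLE*, *MSMO1* and *FNTB*, all higher with scrambled shRNA), and in RS4;11 0 did. Of all genes with a level of at least 100, 7.04% differed in BV-173, 10.2% in NALM-6 and 4.72% in RS4;11.

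**Figure D5:**
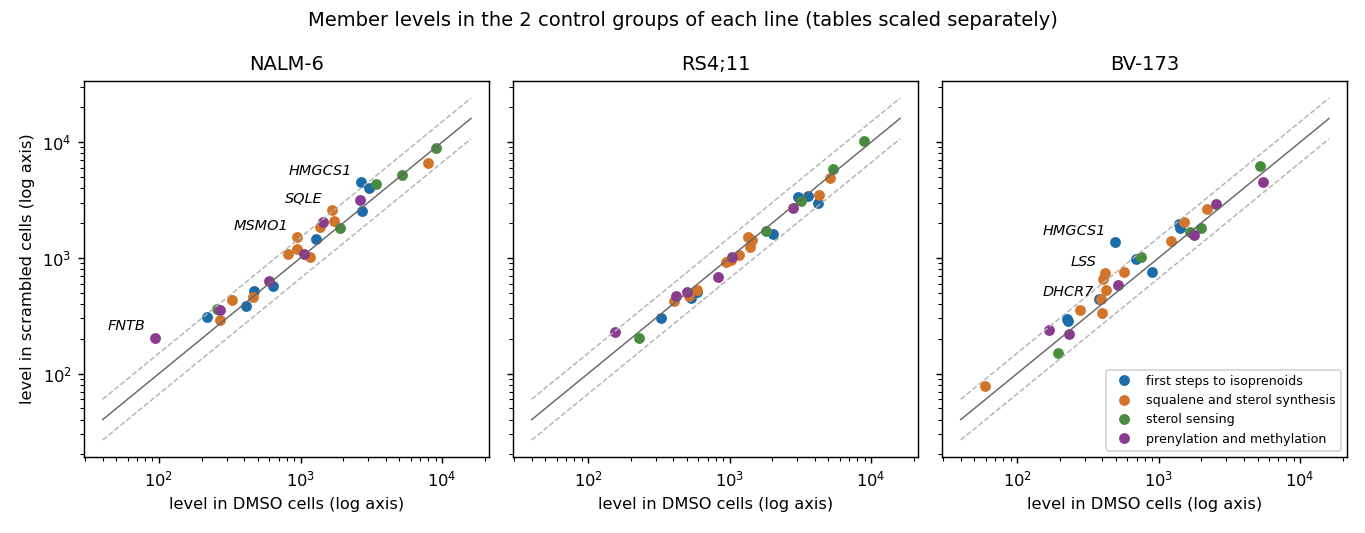
Level of each member in scrambled cells (vertical log axis) against DMSO cells (horizontal log axis) of the same line, coloured by role, from separate tables that may be scaled differently. The solid line marks equal levels and the dashed lines 1.5-fold. In RS4;11 all 30 members lie between the dashed lines, and in BV-173 *HMGCS1*, *LSS* and *DHCR7* lie above them.

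Between the lines, BV-173 had the lowest control level of most members, again from separate tables that may be scaled differently. With scrambled shRNA it was the lowest line for 20 of 30 members and with DMSO for 21 of 30, against 37.7% and 41.9% of all genes. All 5 sensing genes were lowest in BV-173 under both controls. For *SCAP* the lines differed little, by 1.09-fold from lowest to highest with scrambled shRNA and 1.14-fold with DMSO. *INSIG1* was at 1015 in BV-173, 5166 in NALM-6 and 5909 in RS4;11 with scrambled shRNA, and at 757, 5214 and 5377 with DMSO. *HSD17B7* was at 77.5 in BV-173, 431 in NALM-6 and 421 in RS4;11 with scrambled shRNA. Its pseudogenes *HSD17B7P1* and *HSD17B7P2* may share reads with it. *FNTA* had the opposite order, at 4495 in BV-173, 1076 in NALM-6 and 678 in RS4;11 with scrambled shRNA and at 5434, 1062 and 829 with DMSO. *ICMT* differed little between lines, by 1.16-fold from lowest to highest with scrambled shRNA.

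Between genes, levels were compared per kilobase of the length given in the tables, as the mean of the 3 scrambled groups. *FDFT1* was at 1829 per kilobase, *FDPS* at 1777, *SREBF2* at 1593 and *INSIG1* at 1326. The order depended on the line: the highest member was *FDFT1* in NALM-6 (2980 per kilobase), *FDPS* in RS4;11 (2162) and *FNTA* in BV-173 (2629). *ICMT* was at 606 and *TM7SF2* at 237 per kilobase. The lowest means were *FNTB* at 79.3, *INSIG2* at 93.0 and *SC5D* at 120 per kilobase. *FNTA*, whose product pairs with either beta subunit, was at 629, 397 and 2629 per kilobase, above *FNTB* (72.3, 81.4 and 84.4) and *PGGT1B* (129, 184 and 81.0) in each line.

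Other genes of the pathway were read from lists. The shares of all genes past 1.5-fold, against which their counts are read, were 8.55%, 10.4% and 4.05% higher and 10.4%, 11.3% and 5.39% lower after knockdown, and 18.8%, 16.5% and 14.6% higher and 17.6%, 16.5% and 14.3% lower with palbociclib. Of 9 SREBP targets of fatty acid synthesis, 0, 0 and 0 were past 1.5-fold higher after knockdown and 3, 1 and 0 were lower, while 1, 1 and 2 were higher with palbociclib and 2, 1 and 0 lower. *FASN*, fatty acid synthase, had mean log2 ratios over the lines of 0.41 after knockdown and 0.53 with palbociclib. *LPIN1*, a phosphatidate phosphatase, had 0.28 and 0.61. *FADS1*, the delta-5 desaturase, had −0.55 and −0.83, and its NALM-6 level went from 3243 to 1985 with shCCND3 and from 3043 to 1531 with palbociclib. *SCD*, the delta-9 desaturase, had a mean of −0.44 after knockdown, and *ELOVL6*, an elongase, of −0.37 with palbociclib.

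Of 12 genes of sterol handling, 3 of 12, 4 of 11 and 2 of 11 with the minimum level were higher after knockdown (8.55%, 10.4% and 4.05% of all genes), and 1, 0 and 0 lower. With palbociclib 1 of 12, 3 of 10 and 3 of 11 were higher and 0, 1 and 1 lower. *NR1H2*, which encodes the oxysterol receptor LXR beta, went from 634 to 1226, from 901 to 1448 and from 719 to 1149 after knockdown, past 1.5-fold in all 3 lines. *MYLIP*, a ubiquitin ligase that LXR is known to induce, had mean log2 ratios of 0.76 after knockdown and 0.59 with palbociclib, and *LIPA*, lysosomal acid lipase, 0.65 with palbociclib. *SOAT1*, which esterifies cholesterol for storage, had −0.49 after knockdown and −0.77 with palbociclib, and *STARD4*, a sterol carrier, −0.16 and −0.19.

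Of 11 genes of other uses of isoprenoids, 0 were past 1.5-fold in any line after knockdown. With palbociclib 0, 0 and 1 were higher and 2, 2 and 1 lower, where 17.6%, 16.5% and 14.3% of all genes were lower. *COQ2*, the prenyltransferase of ubiquinone synthesis, went from 349 to 227 in NALM-6, from 533 to 331 in RS4;11 and from 345 to 222 in BV-173 with palbociclib, past 1.5-fold in all 3. *PDSS1*, which builds the ubiquinone tail, had mean log2 ratios of −0.39 after knockdown and −0.20 with palbociclib. *DHDDS*, of dolichol synthesis, had 0.35 and 0.41. *RABGGTA*, the alpha subunit of the Rab GGTase, had 0.30 after knockdown.

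Of 21 genes for CAAX proteins, the substrates of ICMT and its partners, at least 20 had the minimum level in each comparison. Of these, 0 were past 1.5-fold higher after knockdown in any line and 6, 4 and 4 were lower, where 10.4%, 11.3% and 5.39% of all genes were lower. With palbociclib 2, 2 and 2 were higher and 8, 4 and 4 lower, where 17.6%, 16.5% and 14.3% of all genes were lower. Among the lowest were *LMNB1*, a nuclear lamin, and *CENPE* and *CENPF*, kinetochore proteins known to be made late in the cell cycle. *LMNB1* went from 10006 to 3111, from 7132 to 1770 and from 7273 to 3836 after knockdown. *CENPF* had mean log2 ratios of −1.38 after knockdown and −3.35 with palbociclib, and *CENPE* −3.62 with palbociclib. *RAC2*, a small GTPase of blood cells, had a mean of 0.52 and *DNAJA1*, a farnesylated co-chaperone, 0.38 with palbociclib. *CDC42* and *GNG7* were the highest after knockdown, at 0.16 and 0.33.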

How the data were processed

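Total RNA of the 34 samples was enriched for mRNA with oligo dT and sequenced by the authors. The authors used SOAPnuke for read filtering, Bowtie2 for mapping, hg38 as the reference, RSEM for gene levels and DESeq2 for comparisons. Their versions are not given in the sources used here. The authors deposited 6 tables, 1 for each line and treatment. How the authors pooled and scaled the samples is not given in the sources used here, so different tables may not share a scale. The deposited signal is 1 pooled level per gene and group. It was never 0 and summed to between 17810468 and 20756235 per group, so the levels carry no replicate error or depth per sample and no interval was computed from them. The tables also hold the authors' own log2 fold changes, p-values and adjusted p-values, which were not used. Gene length is the tables' own.

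From the levels, log2 ratios were computed with no pseudocount for genes with a mean level of at least 10, in Python 3.11.15 with pandas 2.3.3 and numpy 2.4.6 (figures with matplotlib 3.10.9). Being past 1.5-fold is a size, not a test, and is read against the share of all genes past it. In these tables ratios of the lowest genes are compressed: their SD was 0.17 to 0.61 for levels under 3 and 0.46 to 1.18 for levels of 10 to 100. The scripts were tested on simulated data. Members, lists, role groups and the naming rule were chosen with earlier results of these data known. The rule named all 30 members, *CCND3* and, of each other list and treatment, the 2 genes with the highest and the 2 with the lowest mean log2 ratio among those with a mean level of at least 100 in every comparison. Of these, 1 gene is not reported here. Positions and promoter windows are those of RefSeq, GRCh38.p14. Alternatives were pseudocounts of 1 and 10, centring on the median of all genes, other level filters, folds of 1.25 and 2, and leaving out a line.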

Additional observations from a re-analysis of the deposited data

How the results depend on the processing

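A pseudocount of 1 or 10, centring on the median of all genes, no filter on the level and a mean level of at least 100 left the counts of members past 1.5-fold within 1.5 times in all 6 comparisons. The log2 ratio of *ICMT* moved by at most 0.06 under the pseudocounts and the centring. One median moved by more than 0.1: that of the sterol branch in BV-173 with palbociclib became 0.57 with a mean level of at least 100, which leaves out *HSD17B7*. At the smaller fold tried, 9, 8 and 9 members passed after knockdown and 14, 10 and 17 with palbociclib (NALM-6 first, BV-173 last). At 2-fold, 2 and 0 passed after knockdown in NALM-6 and BV-173, and 2, 1 and 2 with palbociclib. The shares of all genes past the smaller fold and past 2-fold are not given here. The counts at these folds therefore have no background and do not show a response of the set. Leaving out a line moved 30 of the 60 means over the lines by more than 0.1 (BV-173), 20 (NALM-6) and 12 (RS4;11). With palbociclib and without BV-173, the mean of *DHCR7* went from 0.70 to 0.33, that of *MSMO1* from 0.47 to 0.31 and that of *FDPS* from −0.51 to −0.77. Without NALM-6, that of *EBP* went from −0.41 to −0.11. Without BV-173, the mean log2 ratio over the lines changed sign for *DHCR7* after knockdown (from 0.15 to −0.03) and for *INSIG1* with palbociclib (from 0.11 to −0.01). No paired analysis was possible because the tables hold 1 pooled level per group, and for the same reason no replicate could be left out. Low levels limit *HSD17B7* in BV-173 and *FNTB* most.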
